A study of Mus musculus with 21 samples.

Results

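Whole uteri of aged mice were compared with those of 8-week-old mice across every gene the authors deposited. All animals were wild type C57BL/6J mice, an inbred strain, and all had been primed with pregnant mare serum gonadotropin, at a dose of 5 or 7.5 units, and were dissected 48 hours later. The hormone stimulates ovarian follicles, so every animal of both groups, controls included, was primed, and the labels tie no dose to an animal. The members are the 13 libraries whose column header names an aged or an 8-week sample, 6 aged and 7 at 8 weeks, of 20 libraries with values and 21 samples in the series. The other 7 libraries, from 5-week-old mice, entered only the estimates of the spread and of the set term.

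The libraries fall into 2 sets by their sample names. The earlier set holds 2 libraries of 8-week-old mice and 2 of aged mice of 60 to 75 weeks. The later set holds 5 libraries of 8-week-old mice and 4 of aged mice of 79 weeks. Age within the aged group, set and any change of instrument, RNA kit or read layout between the sets cannot be told apart. Single reads of 60 bases and paired reads of 150 bases are both named for every sample, without tying either to a library. The labels number the samples as replicates without saying that each came from its own animal, so the p-values measure the spread between these samples. The column header of 15 files names another sample than the one the file was attached to, and the header was followed. Recomputed read totals were 12204573 to 14448283 in the earlier and 19100690 to 30689439 in the later set, with no listed gene under 10 reads in any library.

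The uterus is a muscular tube, the myometrium, lined by endometrium, which is a stroma of fibroblasts covered and invaded by luminal and glandular epithelium. Estrogen from growing follicles makes the epithelium divide and secrete, and it loads the secretory pathway with new protein. Old female mice have few follicles left, and their endometrium is known for more collagenous stroma and for slower growth after hormone. Marker genes of the uterus were present in all 13 libraries, at levels that varied widely between them. The uterine patterning gene Hoxa10 lay between 46.7 and 567 CPM, and the estrogen receptor Esr1 between 183 and 567 CPM. The epithelial adhesion gene Epcam lay between 211 and 1264 CPM, and the smooth muscle myosin gene Myh11 between 114 and 2911 CPM. CPM is the read count scaled to a fixed library total over the genes listed.

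Differences were tested with limma on log2(CPM + 1), with age and set as terms, and p-values were adjusted by the Benjamini-Hochberg method over 12791 genes. A gene is called when its adjusted p is below 0.05, and every fold change is a difference on the log2(CPM + 1) scale, aged minus 8 weeks, with its SE. Aged uteri differed in 2196 genes (17.2% of those tested), of which 1105 were higher (8.64%) and 1091 lower (8.53%). A change of at least 2-fold was called for 449 higher (3.51%) and 373 lower genes (2.92%). All 6 aged libraries lay above every 8-week library for 121 genes (0.946%) and below every one for 130 genes (1.02%). The median of all genes was 0.05. Of the genes called, 1173 were called in each of 13 fits that left out 1 of these libraries, 557 higher and 616 lower. The total was 1454 without 8w replicate 1, 1358 without 8w replicate 2 and 1309 without aged replicate 1, and 565 when columns were attached by file instead of by header. Of higher genes alone there were 629 without 8w replicate 2, 723 without 8w replicate 3, 662 without aged replicate 1 and 682 without aged replicate 2, and of lower genes 694 without 8w replicate 1 and 647 without aged replicate 1.

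Of the genes called, 1898 had the larger difference within the earlier set. Among the 2196 genes called, 2195 had the same sign in both sets, and the median size on the log2 scale was 1.25 in the earlier and 0.66 in the later one. The calls draw on both sets pooled, so genes of opposite sign in the 2 sets could rarely pass. The agreement in sign is therefore no test of 1 set by the other. Within the later set alone, 51 genes were called higher (0.399%) and 132 lower (1.03%), and within the earlier set alone 1922 (15%) and 1691 (13.2%). Smooth muscle markers differed in level between libraries: the summed level of 15 smooth muscle markers was 1929.9 and 2809 CPM in 8w replicates 1 and 2, against 18642 and 4060.5 CPM in aged replicates 1 and 2, while later libraries ran from 14522.5 to 20638 CPM at 8 weeks and from 3222 to 27579 CPM when aged. The median change of these markers was 2.002 in the earlier set and -0.15 in the later, that of 16 blood vessel markers 1.10 in the earlier set and -0.04 in the later. The summed level of 4 ovary markers in the earlier set was 299 to 495 CPM at 8 weeks and 124 to 176 CPM when aged. In the later set it was 26.6 to 98.9 CPM at 8 weeks and 36.7 to 72.2 CPM when aged. The part these tissues play in the pooled values was not tested, and fewer cells of a type and less RNA per cell cannot be told apart in whole tissue. Set medians are given beside the gene lists.

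**Figure D1:**
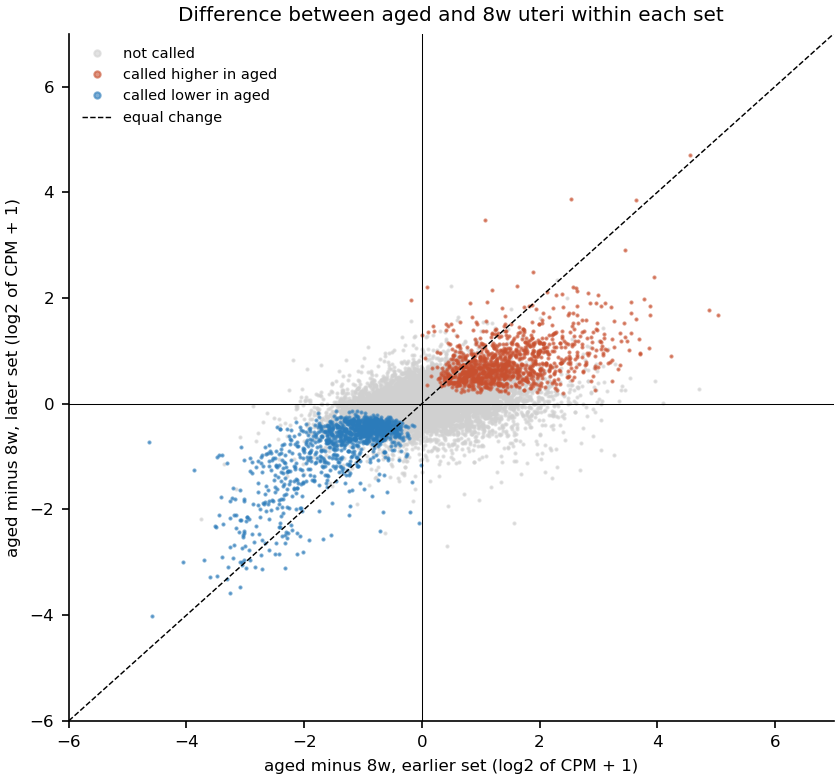
Difference between aged and 8-week uteri in the earlier set (horizontal axis) and in the later one (vertical axis), on the log2(CPM + 1) scale, 1 point per gene. Called genes, in color, lie in the quadrants of equal sign for 2195 of 2196, and 1898 are farther from zero along the earlier axis, with medians of 1.25 in the earlier and 0.66 in the later set. Calls draw on both sets pooled, which favours equal signs.

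The largest changes were ranked among called genes averaging at least 5 CPM, with the same sign in both sets. Members of the cell division and antibody lists and other antibody chain genes were set aside, as were 573 gene models without a proper name, 80 of them called. By this rule the 12 largest rises were those of Slc27a2, Fmo2, Pamr1, Serpina9, C4b, Ces1d, Klhdc7a, Galnt15, Apod, Foxc1, Tgfbi and Acpp, with changes from 2.88 down to 2.32. Each was called in all 13 fits that left out a library. Acpp, an acid phosphatase that also frees adenosine from AMP (chromosome 9, 104288251 to 104337748, minus strand of GRCm38), ran from 22.3 to 67.2 CPM (median 26.8) at 8 weeks and 103 to 264 CPM (median 147) in aged uteri. All 6 aged libraries lay above every 8-week library, and the change was 2.32 ± 0.31 (SE; adjusted p = 0.000162), with 2.62 in the earlier set and 2.19 in the later.

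Galnt15, an enzyme that starts mucin-type sugar chains (chromosome 14, 32028989 to 32062197, plus strand), ran from 11.7 to 57.96 CPM (median 31.3) at 8 weeks and 84.1 to 209 CPM (median 157) in aged uteri. The groups did not overlap, and the change was 2.39 ± 0.44, adjusted p = 0.00127, with 3.87 in the earlier set and 1.68 in the later. C4b, a complement component that tags surfaces for clearance, ran from 26.5 to 114 CPM at 8 weeks and 194 to 724 CPM in aged uteri and did not overlap either (2.56 ± 0.40, adjusted p = 0.000426), though its near-identical copy C4a leaves the level uncertain.

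Foxc1, a forkhead transcription factor (chromosome 13, 31806633 to 31812476, plus strand), ran from 1.29 to 10.2 CPM (median 2.38) at 8 weeks and 9.23 to 46.6 CPM (median 25.7) in aged uteri. Within each set the aged libraries lay above the 8-week ones, and only across sets did they overlap, where aged replicate 4 at 9.23 CPM lay below 8w replicate 2 at 10.2 CPM (2.33 ± 0.33, adjusted p = 0.00021). Serpina9, a protease inhibitor known from germinal centre B cells, ran from 0.456 to 32.03 CPM (median 2.12) at 8 weeks and 17.6 to 72.4 CPM (median 30.3) in aged uteri. It changed by 1.07 within the earlier set, where 8w replicate 2 at 32.03 CPM lay above aged replicate 2 at 17.6 CPM, and by 3.48 within the later set, where the groups did not overlap (2.70 ± 0.55, adjusted p = 0.00283).

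Ces1d, a carboxylesterase that cleaves stored lipid esters, ran from 8.07 to 132 CPM (median 43.96) at 8 weeks and 63.1 to 371 CPM (median 199) in aged uteri, and 4 of 6 aged libraries lay above every 8-week one (2.46 ± 0.54, adjusted p = 0.00459). Related Ces1 genes leave its level uncertain. Apod, a lipid-carrying apolipoprotein, ran from 1.05 to 35.7 CPM (median 9.24) at 8 weeks and 10.01 to 105 CPM (median 39.6) in aged uteri. Among aged uteri 3 of 6 libraries lay above every 8-week one (2.34 ± 0.44, adjusted p = 0.00149). Klhdc7a, which encodes a kelch domain protein, ran from 11.9 to 25.2 CPM (median 15.7) at 8 weeks and 22.8 to 218 CPM (median 110) in aged uteri, with 5 of 6 above (2.44 ± 0.45, adjusted p = 0.00129). Slc27a2, an importer and activator of long-chain fatty acids, changed by 2.88 ± 0.53, and 11.2% of its exon length lies opposite a gene on the other strand.

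The largest falls were led by 4 neighbouring genes of the Sprr2 family, which estrogen induces in epithelium. Under the same rule, the 12 largest were those of Sprr2b, Sprr2a3, Sprr2f, Sprr2g, Atp2c2, Hsd11b2, A2m, Fignl1, Ankle1, Mfsd2a, Ercc6l and Tmem54, from -4.21 to -2.14, and each was called in all 13 fits that left out a library. The Sprr2 genes encode small proline-rich proteins of the cornified envelope and lie side by side on chromosome 3. Sprr2f was the most abundant of the 4, with 254 to 7246 CPM (median 1751) at 8 weeks and 53.9 to 791 CPM (median 129.7) in aged uteri, and the groups overlapped, since aged replicate 1 at 791 CPM lay above 8w replicates 5 and 6 (-3.06 ± 0.67, adjusted p = 0.00454). Sprr2b and Sprr2g did not overlap: Sprr2g ran from 20.04 to 279 CPM (median 57.1) at 8 weeks and 3.25 to 13.5 CPM (median 6.62) in aged uteri (-3.05 ± 0.56, adjusted p = 0.00129). The family is near-identical in sequence, so reads may be split between members.

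Hsd11b2, the enzyme that inactivates glucocorticoid and so shields the mineralocorticoid receptor (chromosome 8, 105518755 to 105523988, plus strand), ran from 59.9 to 599 CPM (median 248) at 8 weeks and 13.1 to 183 CPM (median 40.7) in aged uteri. Of the 6 aged libraries 5 lay below every 8-week one (-2.43 ± 0.60, adjusted p = 0.00935), with -3.16 in the earlier set and -2.10 in the later. Atp2c2, a Golgi pump for calcium and manganese, ran from 5.73 to 380.4 CPM (median 79.1) at 8 weeks and 4.096 to 52.5 CPM (median 8.94) in aged uteri and overlapped (-2.85 ± 0.71, adjusted p = 0.0104). Mfsd2a, a transporter of lysophospholipids (chromosome 4, 122946850 to 122961188, minus strand), ran from 6.55 to 53.9 CPM (median 21.2) at 8 weeks and 1.64 to 5.23 CPM (median 4.23) in aged uteri, and the groups did not overlap (-2.28 ± 0.33, adjusted p = 0.00021). A2m, a plasma protein that traps proteases, ran from 81.6 to 345 CPM (median 193) at 8 weeks and 11.8 to 102 CPM (median 40.3) in aged uteri. In the aged group 5 of 6 libraries lay below every 8-week one (-2.40 ± 0.41, adjusted p = 0.000801). Fignl1, Ankle1 and Ercc6l, which act in recombination repair, DNA cleavage and chromosome separation, are not in the cell division list. They changed by -2.39 ± 0.39, -2.37 ± 0.34 and -2.17 ± 0.38, and Tmem54, a membrane protein, by -2.14 ± 0.34.

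**Figure D2:**
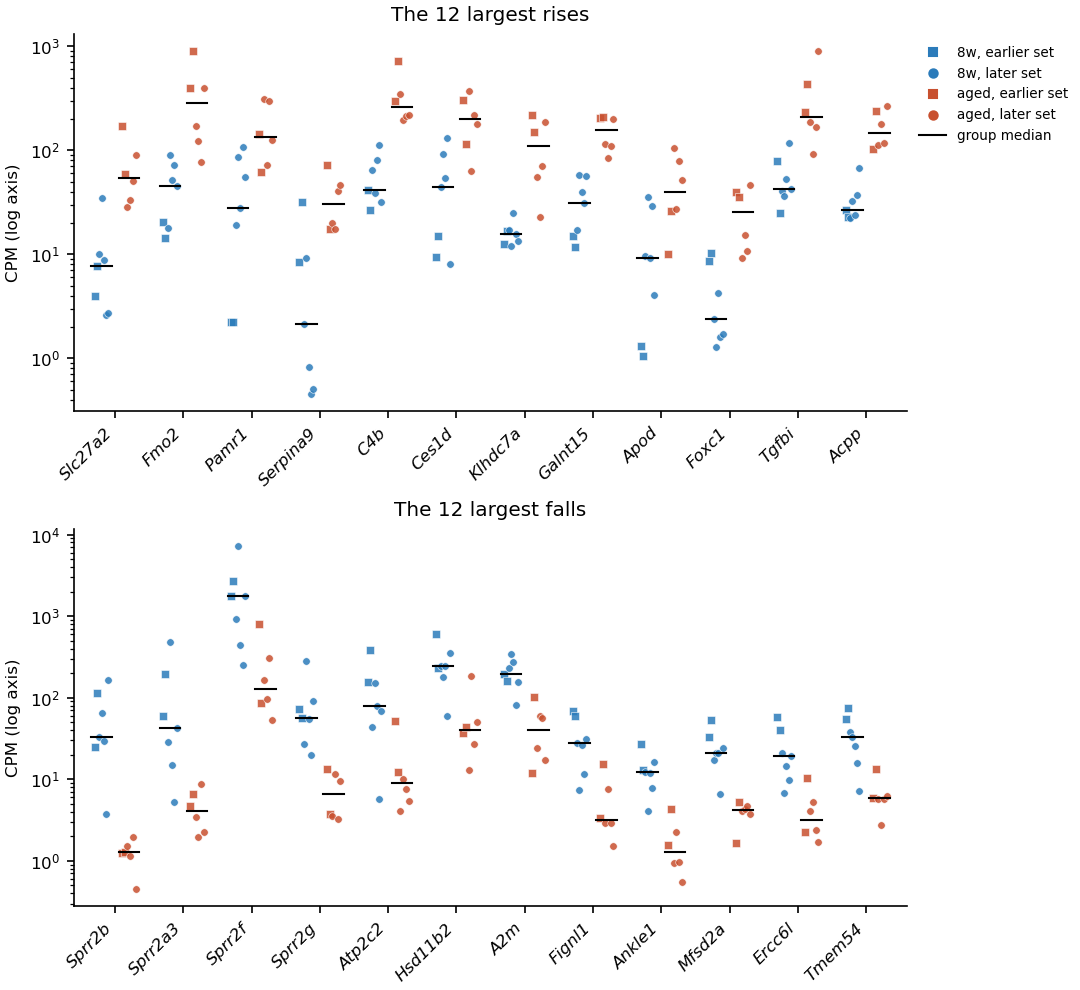
CPM in each library (log axis) of the 12 genes with the largest rises (top) and falls (bottom), with squares for the earlier and circles for the later set and black lines for group medians. The aged and 8-week points of Acpp, Galnt15 and C4b are apart at the top, as are those of Sprr2b, Sprr2g and Mfsd2a at the bottom, and 8-week values of Sprr2f spread from 254 to 7246 CPM.

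Genes of entry into the endoplasmic reticulum, and of folding there, were lower in aged uteri as a group. Secreted and membrane proteins enter this compartment through the Sec61 channel, are folded by chaperones and receive sugars. Of 64 such genes tested, 35 fell and 0 rose (54.7%, against 8.53% of all genes), with a median of -0.55 against 0.05 for all genes, and -0.62 in the earlier set and -0.49 in the later. In the later set 63 of 64 had a negative difference. With 1 library left out, 25 to 41 fell. In the later set alone 2 of the 64 were called lower, with a term for replicate number 8, and with columns attached by file 11. Genes of 1 list are not separate replicates. Their summed level lay between 14438 and 21725 CPM at 8 weeks and between 9959.7 and 14310.3 CPM in aged uteri, so that every aged library lay below every 8-week library.

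Of the 64, 10 had every aged library below every 8-week library, against 1.02% of all genes. Manf, a small protein that the stressed compartment releases (chromosome 9, 106838312 to 106891979, minus strand), ran from 231 to 504 CPM (median 281) at 8 weeks and 74.7 to 193 CPM (median 132) in aged uteri and was apart in this way (-1.33 ± 0.23, adjusted p = 0.00094). Creld2, another factor of this kind, ran from 79.1 to 154 CPM (median 94.1) at 8 weeks and 33.95 to 76.1 CPM (median 54.6) in aged uteri and was also apart (-0.94 ± 0.20, adjusted p = 0.0035). Ssr1, which sits beside the Sec61 channel, ran from 257 to 538 CPM (median 327) at 8 weeks and 146 to 288 CPM (median 179) in aged uteri and overlapped through aged replicate 2 alone, at 288 CPM (-1.002 ± 0.12, adjusted p = 0.000129). Ostc, a subunit of the sugar-transfer complex, changed by -1.05 ± 0.18. The chaperone Hspa5, also named BiP, ran from 903 to 2106 CPM (median 1539) at 8 weeks and 513 to 918 CPM (median 734) in aged uteri and overlapped through the lowest 8-week value, that of 8w replicate 1 (-1.04 ± 0.18, adjusted p = 0.00094).

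Under load, the factors ATF6 and XBP1 switch on folding genes through an endoplasmic reticulum stress element in their promoters. The element, CCAAT and CCACG with 9 bases between them, searched on both strands in windows of 250 bases before to 50 bases after each RefSeq gene start (GRCm38.p6), was found for 37 of 27025 genes (0.137%). Of the 64 genes above, 50 had a window, and 8 of these held the element (16%). The 8 are shown as the members of this list whose window holds it. Capitals mark CCAAT and CCACG, or CGTGG and ATTGG where the element reads on the other strand, and each run is upstream of the start, 5′ to 3′ along the gene.
Hspa5 (chr2:34772020-34772048, plus strand): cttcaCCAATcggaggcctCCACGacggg
Pdia6 (chr12:17266486-17266514, plus strand): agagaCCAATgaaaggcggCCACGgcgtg
Hsp90b1 (chr10:86705598-86705694, minus strand): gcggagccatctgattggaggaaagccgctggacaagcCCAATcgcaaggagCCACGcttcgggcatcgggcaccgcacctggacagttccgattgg
Creld2 (chr15:88819480-88819578, plus strand): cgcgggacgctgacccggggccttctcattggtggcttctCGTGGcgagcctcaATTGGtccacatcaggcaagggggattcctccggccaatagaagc
Canx (chr11:50325760-50325858, minus strand): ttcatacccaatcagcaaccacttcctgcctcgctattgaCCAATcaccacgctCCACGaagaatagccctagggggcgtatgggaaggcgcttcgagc
Calr (chr8:84847035-84847133, minus strand): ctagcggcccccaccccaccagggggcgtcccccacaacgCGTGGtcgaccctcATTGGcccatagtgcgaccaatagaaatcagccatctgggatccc
Dnajc3 (chr14:118937787-118937885, plus strand): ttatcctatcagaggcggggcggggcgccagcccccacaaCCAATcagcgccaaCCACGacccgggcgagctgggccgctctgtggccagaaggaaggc
Syvn1 (chr19:6046492-6046575, plus strand): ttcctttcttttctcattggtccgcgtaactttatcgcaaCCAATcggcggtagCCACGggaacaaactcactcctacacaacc

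Of these 8 genes, 6 fell and 0 rose. Besides Hspa5 and Creld2, they were the disulfide isomerase Pdia6 (-0.82 ± 0.19), the chaperone Hsp90b1 (-0.77 ± 0.19) and the sugar-reading chaperones Canx (-0.55 ± 0.14) and Calr (-0.62 ± 0.18, adjusted p = 0.0216). The call of Calr ended without 8w replicate 2 or aged replicate 1. Dnajc3, a cochaperone, had a difference of -0.54 ± 0.19, adjusted p = 0.0618 and was called without 8w replicate 6 or aged replicate 5, and Syvn1, a ligase that marks misfolded protein, had -0.20 ± 0.28, adjusted p = 0.659. Outside the list 8 tested genes held the element, and 1 of them fell (12.5%, against 8.53% of all genes). These genes were singled out after their values were seen, by the sequence. A match is a description of the window and not a test of binding.

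The next steps of the secretory path were lower too. Of 49 genes of vesicle coats and the Golgi 18 fell and 0 rose (36.7%, median -0.35 (-0.43 in the earlier set, -0.28 in the later)), and the count was 11 without aged replicate 1. Arf4, a GTPase that recruits vesicle coats (chromosome 14, 26638074 to 26665084, plus strand), ran from 222 to 349 CPM when aged, against an 8-week median of 432 CPM. Kdelr2, which returns escaped chaperones, ran from 217 to 355 CPM at 8 weeks and 111 to 203 CPM in aged uteri. Sec22b, a fusion protein of these vesicles, ran from 109 to 152 CPM at 8 weeks and 69.1 to 95.9 CPM in aged uteri. In all 3 every aged library lay below every 8-week one, with changes of -0.72 ± 0.11, -0.83 ± 0.15 and -0.59 ± 0.11, though 17.7% of the exon length of Arf4 lies opposite another gene. Of 47 genes of protein glycosylation 10 fell and 0 rose (21.3%). The list median was -0.31 (-0.46 in the earlier set, -0.22 in the later), and the count 5 without 8w replicate 2 and 6 without 8w replicates 1 or 3 or aged replicates 1 or 2. Mpi, which feeds mannose into sugar donors, ran from 28.3 to 57.8 CPM at 8 weeks and 11.97 to 27.2 CPM in aged uteri without overlap (-0.82 ± 0.17, adjusted p = 0.00245). Alg8 and Mgat2, enzymes that build and trim these sugars, changed by -0.96 ± 0.23 and -0.74 ± 0.17.

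Sterol synthesis and serine-derived carbon supply had members that fell. The sterol path makes cholesterol from acetyl-CoA under the control of SREBP factors. Of 38 genes of sterol and fatty acid synthesis 7 fell and 0 rose (18.4%, median -0.54), with -1.14 in the earlier set and -0.18 in the later, and 11 without 8w replicate 6 or aged replicates 4 or 5 fell. Sqle, Cyp51 and Msmo1, which close and trim the sterol rings, changed by -1.67 ± 0.39, -1.55 ± 0.36 and -1.73 ± 0.39. Hmgcs1, an early enzyme of the path, ran from 46.4 to 211 CPM (median 116) at 8 weeks and 31.4 to 85.7 CPM (median 41.8) in aged uteri and changed by -1.25 ± 0.30, with 12.1% of its exon length opposite another gene. It was the 1 of 28 genes of this list with a window that held TCACCCCAC, the sterol element of textbook SREBP targets, which 166 of 27025 genes (0.614%) held on either strand. Of all 67 tested genes with the element 3 fell and 4 rose (4.48% and 5.97%, below the 8.53% and 8.64% of all genes). The run of Hmgcs1, upstream of the start with the element in capitals, is shown as the only match of the list.
Hmgcs1 (chr13:119690174-119690262, plus strand): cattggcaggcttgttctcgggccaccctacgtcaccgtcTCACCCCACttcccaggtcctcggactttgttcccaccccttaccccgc

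Of 35 genes of amino acid supply and ATF4 targets 7 fell and 0 rose (20%, median -0.29 (-0.50 in the earlier set, -0.20 in the later)), with 6 to 10 falling when 1 library was left out. Mthfd2, a mitochondrial enzyme that passes on the carbon of serine, ran from 19.7 to 65.99 CPM (median 43.3) at 8 weeks and 6.96 to 23.6 CPM (median 15.4) in aged uteri. Of its aged values 5 of 6 lay below every 8-week one (-1.40 ± 0.31, adjusted p = 0.00447). The change was -2.66 in the earlier set and -0.82 in the later. Psat1, of serine synthesis, changed by -1.18 ± 0.25, Asns, asparagine synthetase, by -0.88 ± 0.24, Shmt1, of one-carbon transfer, by -1.01 ± 0.26 and the stress factor Atf4 itself by -0.60 ± 0.14.

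Genes that make and fold new protein fell in part, while genes of the ribosome's own proteins did not pass. Of 23 aminoacyl-tRNA synthetases, which charge tRNA with amino acids, 9 fell and 0 rose (39.1%, median -0.48 (-1.09 in the earlier set, -0.25 in the later)), a count of 4 without 8w replicate 2 or aged replicate 1. Rars, the arginine enzyme, ran from 114 to 179.8 CPM at 8 weeks and 59.3 to 109.8 CPM in aged uteri without overlap (-0.74 ± 0.16, adjusted p = 0.00366), and Eef1e1, a scaffold protein of this complex, changed by -0.95 ± 0.20. Of 49 ribosome assembly genes 10 fell (20.4%, against 8.53% of all genes) and all 49 had a negative difference, with medians of -1.23 in the earlier set and -0.23 in the later. That count was 1 without 8w replicate 1 or aged replicate 1, 2 without 8w replicate 2, 4 without 8w replicate 3, 6 without 8w replicates 5 or 7 or aged replicate 2 and 31 without 8w replicate 4. Nop58, which guides chemical marks onto ribosomal RNA, ran from 79.7 to 266 CPM (median 193) at 8 weeks and 48.03 to 126 CPM (median 97.9) in aged uteri, and 8w replicate 4 at 79.7 CPM lay among the aged values (-0.97 ± 0.24, adjusted p = 0.0103).

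Of 79 cytosolic ribosomal protein genes 0 were called by limma in either direction, and 40 had a positive and 39 a negative difference. By limma, 4 of 79 had an unadjusted p below 0.05, at most 1 was called when 1 library was left out, and 0 were called with voom weights. Their summed level was 22574 to 24670 CPM in the earlier and 108668 to 155346 CPM in the later set, in both age groups, and the origin of that gap between sets was not tested. Of 38 cytosolic and mitochondrial heat shock proteins 10 fell and 2 rose (26.3% and 5.26%, against 8.53% and 8.64% of all genes). Their median was -0.39 (-0.61 in the earlier set, -0.26 in the later). The rising count was 0 without 8w replicates 1 or 2 or aged replicates 1, 2, 4 or 6 and 1 without 8w replicates 3, 6 or 7. Cct8, of the ring that folds actin and tubulin, changed by -0.70 ± 0.14, adjusted p = 0.00289. Of 35 proteasome genes, whose products degrade marked protein, 11 fell and 0 rose (31.4%). The median change was -0.45 (-0.96 in the earlier set, -0.24 in the later), and the count 4 without 8w replicates 1 or 2 or aged replicate 1, 5 without 8w replicate 3 or aged replicate 2, 7 without aged replicate 7 and 20 without aged replicate 6. Psmd14, which removes ubiquitin there, changed by -0.80 ± 0.18, adjusted p = 0.00522.

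Nuclear genes for mitochondrial proteins fell in part. Of 75 mitochondrial ribosomal genes 21 fell and 0 rose (28%), with medians of -0.77 in the earlier set and -0.14 in the later, and of 71 respiratory chain genes 11 fell and 0 rose (15.5%), with -0.57 in the earlier set and -0.17 in the later. The first count was 7 without 8w replicate 1 or aged replicate 1, 8 without 8w replicate 2, 9 without 8w replicate 3, 10 without aged replicate 2 and 12 without 8w replicate 5 or aged replicate 7. The second was 4 without aged replicate 1, 5 without 8w replicates 1 or 2, 6 without 8w replicates 3 or 5 or aged replicate 2 and 7 without aged replicate 7. Mrpl18 ran from 45.9 to 73.1 CPM at 8 weeks and 27.1 to 42.8 CPM in aged uteri, and Atp5g3, of the rotor ring of ATP synthase, from 275 to 579.7 CPM at 8 weeks and 195 to 242 CPM in aged uteri. Neither overlapped between groups, and the changes were -0.79 ± 0.16 and -0.67 ± 0.13. Genes encoded in the mitochondrion itself included no fall: of 9 tested 2 rose (22.2%, against 8.64% of all genes). All 9 had a positive difference, and the median was 0.44 (0.83 in the earlier set, 0.19 in the later). Their summed level in the earlier set was 8983 to 9889 CPM at 8 weeks and 18707 to 19181 CPM when aged, and in the later set 27399 to 37792 CPM and 23488 to 40739 CPM. The risers were mt-Nd5 and mt-Nd6, of complex I.

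Of 30 genes of the tricarboxylic acid cycle 9 fell and 0 rose (30%). Their median was -0.28 (-0.56 in the earlier set, -0.23 in the later), and the count 5 without 8w replicates 1 or 3 or aged replicates 1, 2 or 7. Me2, which makes pyruvate from malate, ran from 53.9 to 165 CPM (median 101) at 8 weeks and 36.00 to 78.9 CPM (median 41.3) in aged uteri, with aged replicate 2 highest among the aged (-1.11 ± 0.21, adjusted p = 0.00157), and Sdhb, of complex II, changed by -0.69 ± 0.17. Of 25 glycolysis genes 4 fell and 1 rose (16% and 4%, against 8.53% and 8.64% of all genes), with a median of -0.10 (-0.28 in the earlier set, -0.03 in the later) and 2 without 8w replicate 4 or aged replicate 5 rising. Hk2, which traps glucose, changed by -1.23 ± 0.30 and Ldha, lactate dehydrogenase, by -0.86 ± 0.21. Pfkfb3, which makes an activator of glycolysis, went the other way, with 26.4 to 80.7 CPM (median 39.6) at 8 weeks and 55.7 to 104 CPM (median 83.8) in aged uteri (0.94 ± 0.26, adjusted p = 0.0167).

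Splicing genes followed the same direction, with 17 of 63 lower and 0 higher (27%, median -0.36 (-0.69 in the earlier set, -0.25 in the later)), a count of 7 without aged replicate 1, 8 without 8w replicate 1 and 10 without 8w replicate 2. Hnrnpa2b1, an abundant RNA-binding protein (chromosome 6, 51460932 to 51469894, minus strand), ran from 894 to 1403 CPM (median 1256) at 8 weeks and 431 to 817 CPM (median 767) in aged uteri, without overlap (-0.78 ± 0.18, adjusted p = 0.00525). Snrpa1, of the U2 particle, changed by -2.23 in the earlier set and -0.50 in the later (-1.04 ± 0.24, adjusted p = 0.00585), and Tra2b, which selects exons, by -0.75 ± 0.19.

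Some genes of degradation inside the cell rose. Of 37 autophagy genes, whose products enclose cell contents for breakdown, 9 rose and 0 fell (24.3%, against 8.64% of all genes), with a median of 0.27 (0.48 in the earlier set, 0.17 in the later). That count was 3 without 8w replicates 2, 3 or 5 and 4 without aged replicates 1, 2 or 4. Gabarapl1, a tag of autophagosome membranes (chromosome 6, 129533160 to 129542346, plus strand), ran from 70.98 to 153 CPM (median 98.02) at 8 weeks and 213 to 546 CPM (median 337) in aged uteri. Every aged library lay above every 8-week one, in each set too, and the change was 1.73 ± 0.23, adjusted p = 0.000173, although 28.3% of its exon length lies opposite another gene. Sqstm1, which delivers ubiquitin-marked cargo, ran from 199 to 405 CPM (median 259) at 8 weeks and 368 to 626 CPM (median 452) in aged uteri, with 4 of 6 aged libraries above (0.86 ± 0.16, adjusted p = 0.00123; 17.3% opposite). Pik3c3, the lipid kinase that starts the process, did not overlap between groups, with 32.8 to 50.9 CPM at 8 weeks and 51.3 to 152 CPM in aged uteri (0.74 ± 0.20, adjusted p = 0.0145).

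Of 49 lysosome genes 8 rose and 1 fell (16.3% and 2.04%, median 0.31 (0.44 in the earlier set, 0.17 in the later)), and 4 without 8w replicate 2 or aged replicate 1 and 5 without 8w replicate 1 rose. Ctsf, a cysteine protease (chromosome 19, 4855130 to 4860918, plus strand), ran from 7.404 to 49.6 CPM (median 36.00) at 8 weeks and 50.4 to 82.4 CPM (median 70.9) in aged uteri, and the lowest aged library, aged replicate 2 at 50.4 CPM, lay just above the highest 8-week value of 49.6 CPM (1.43 ± 0.29, adjusted p = 0.00274). Gaa, which breaks down glycogen, changed by 0.88 ± 0.22. Gusb, which cleaves glucuronides, was the one that fell (-0.79 ± 0.19, adjusted p = 0.00926).

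**Figure D3:**
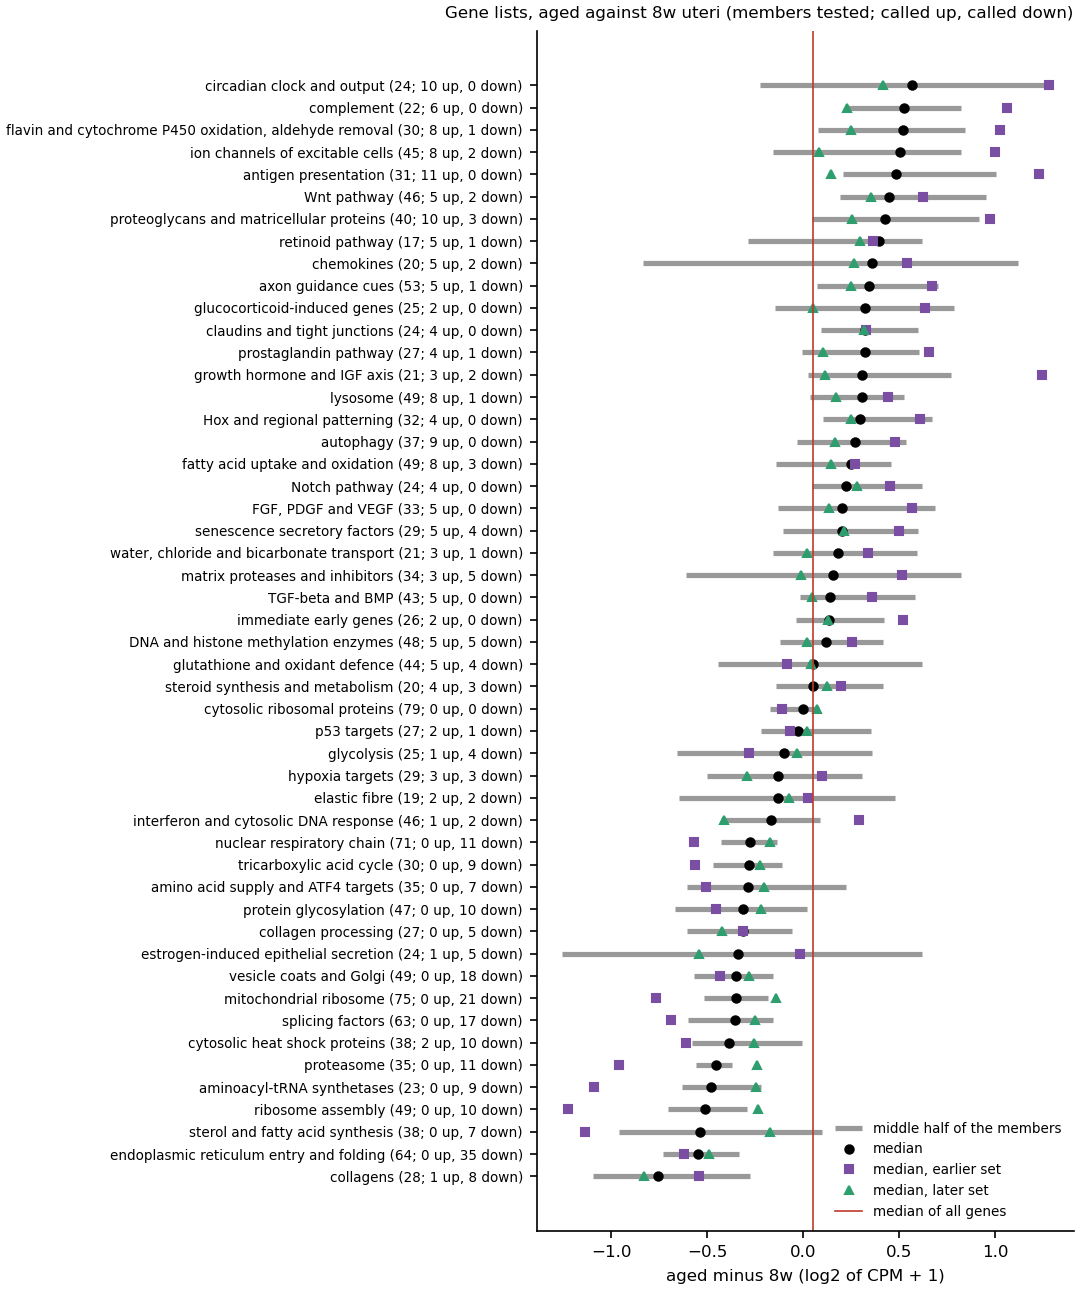
Median change of each gene list with at least 15 members tested, cell division set aside (black point), the central part of its members, from the first to the last quartile (grey bar) and the medians of the earlier (square) and later set (triangle), aged minus 8 weeks on the log2(CPM + 1) scale. The red line is the median of all genes, 0.05. Collagens (-0.76) and endoplasmic reticulum genes (-0.55) lie lowest and clock genes (0.57) highest, and the square lies farther from zero than the triangle for 44 of 50 lists.

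Some oxidizing enzymes that act on foreign compounds and lipids rose. Of 30 genes of flavin and cytochrome P450 oxidation and aldehyde removal 8 rose and 1 fell (26.7% and 3.33%), with a median of 0.52 (1.02 in the earlier set, 0.25 in the later) and 6 to 10 rising when 1 library was left out. The falling count was 0 without 8w replicates 1, 2, 3, 5 or 7 or aged replicates 1, 4, 6 or 7 and 2 without aged replicate 5. For 3 of the 30 genes every aged library lay above every 8-week one, against 0.946% of all genes. Ephx1, which opens epoxides (chromosome 1, 180976210 to 181020904, minus strand), ran from 50.3 to 98.1 CPM (median 72.95) at 8 weeks and 141 to 275 CPM (median 196) in aged uteri (1.43 ± 0.19, adjusted p = 0.000177). Cyp4f13, which hydroxylates fatty acid derivatives, ran from 7.89 to 22.3 CPM at 8 weeks and 25.5 to 49.05 CPM in aged uteri (1.20 ± 0.19). Fmo5, a flavin monooxygenase, ran from 1.61 to 9.99 CPM at 8 weeks and 11.8 to 22.2 CPM in aged uteri (1.54 ± 0.31). Fmo2, the largest rise of the list, ran from 14.2 to 90.9 CPM (median 44.9) at 8 weeks and 77.03 to 902 CPM (median 282) in aged uteri. In the aged group 5 of 6 libraries lay above every 8-week one and changes of 5.04 in the earlier set and 1.68 in the later.

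Of 44 genes of glutathione and oxidant defence 5 rose and 4 fell, near the share of all genes, with a median of 0.05 (-0.09 in the earlier set, 0.04 in the later), and the rising count was 3 without 8w replicates 1, 2 or 3 or aged replicates 1 or 2 and 8 without aged replicate 5. The falling count was 1 without 8w replicate 3 or aged replicate 1 and 2 without 8w replicates 1, 2, 4 or 5 or aged replicate 2. The risers included transferases that couple glutathione to reactive compounds. Of these, Gstm1 ran from 34.4 to 477 CPM (median 246) at 8 weeks and 192 to 785 CPM (median 589) in aged uteri (1.44 ± 0.27, adjusted p = 0.00161). Gsta3 ran from 4.09 to 20.6 CPM at 8 weeks and 12.6 to 83.8 CPM in aged uteri (1.52 ± 0.39), and Gstt1 from 6.68 to 126 CPM at 8 weeks and 49.1 to 174 CPM in aged uteri (1.42 ± 0.36). Prdx3, which clears peroxide in mitochondria, fell (-0.71 ± 0.16, adjusted p = 0.00543). Related transferase genes can share reads.

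In the matrix, some collagens and crosslinking enzymes fell and some proteoglycans rose. Of 28 collagen genes 8 fell and 1 rose (28.6% and 3.57%), with a median of -0.76 and -0.54 in the earlier set and -0.83 in the later. The falling count was 5 without 8w replicates 1, 5 or 7 or aged replicates 1, 2 or 4, the rising count 0 without 8w replicate 2 or aged replicates 2 or 7. Col6a3, a chain of the beaded filaments around cells, ran from 232 to 1387 CPM (median 745) at 8 weeks and 129.8 to 491 CPM (median 215) in aged uteri. Among aged uteri 4 of 6 libraries lay below every 8-week one (-1.61 ± 0.43, adjusted p = 0.0147). Col7a1, of the fibrils that anchor epithelium, ran from 13.5 to 55.3 CPM at 8 weeks and 4.85 to 17.8 CPM in aged uteri (-1.36 ± 0.32), and Col6a6 and the fibrillar Col3a1 changed by -1.50 ± 0.33 and -1.15 ± 0.30.

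Of 27 collagen processing genes 5 fell (18.5%, against 8.53% of all genes) and 0 rose. The list median was -0.31 (-0.31 in the earlier set, -0.43 in the later), and the count 3 without 8w replicates 1, 3 or 5 or aged replicates 1, 4 or 7. Loxl2, which crosslinks collagen (chromosome 14, 69609068 to 69695834, plus strand), ran from 48.2 to 171 CPM (median 89.8) at 8 weeks and 19.5 to 35.3 CPM (median 30.2) in aged uteri. Adamts14, which trims procollagen, ran from 5.54 to 19.8 CPM at 8 weeks and 1.94 to 5.04 CPM in aged uteri. Neither overlapped between groups (-1.53 ± 0.29, adjusted p = 0.00159 and -1.33 ± 0.35, adjusted p = 0.0146). Plod2, which hydroxylates the crosslinking lysines, changed by -1.12 ± 0.28, with -1.12 in the earlier set and -1.12 in the later.

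Of 40 proteoglycan and matricellular genes 10 rose and 3 fell (25% and 7.5%, median 0.43 (0.97 in the earlier set, 0.25 in the later)), and the rising count was 6 without 8w replicate 2 or aged replicates 1 or 2. The falling count was 1 without 8w replicates 1, 3 or 7 or aged replicates 1, 2 or 7. Prelp, a leucine-rich proteoglycan that binds collagen (chromosome 1, 133910304 to 133921414, minus strand), ran from 11.3 to 89.1 CPM (median 38.1) at 8 weeks and 93.7 to 174 CPM (median 119) in aged uteri, without overlap (1.98 ± 0.39, adjusted p = 0.0022), with 3.68 in the earlier set and 1.22 in the later. Tnxb, which spaces collagen fibrils, ran from 14.1 to 84.3 CPM (median 49.2) at 8 weeks and 70.7 to 243 CPM (median 111) in aged uteri (1.62 ± 0.37, adjusted p = 0.00566). Vcan, the large water-holding proteoglycan of growing tissue, fell (-1.71 ± 0.35, adjusted p = 0.00267), from 23.8 to 129 CPM at 8 weeks and 8.65 to 56.6 CPM in aged uteri.

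Of 19 elastic fibre genes 2 rose and 2 fell (10.5% each, near the 8.64% and 8.53% of all genes), with a median of -0.13 (0.03 in the earlier set, -0.08 in the later), and the falling count was 1 without 8w replicates 1, 5 or 7 or aged replicates 1, 2 or 7 and 4 without aged replicate 5. Fbln7, an adhesion protein of the fibulin family (chromosome 2, 128862981 to 128897034, plus strand), ran from 0.944 to 4.59 CPM (median 2.25) at 8 weeks and 7.53 to 26.8 CPM (median 15.8) in aged uteri. Every aged library lay above every 8-week one, and the change was 2.31 ± 0.33, adjusted p = 0.00021, with 2.57 in the earlier set and 2.20 in the later. Fbn2, the fibrillin of developing tissue, fell, with 8.48 to 42.6 CPM (median 19.1) at 8 weeks and 1.04 to 13.5 CPM (median 7.47) in aged uteri (-1.88 ± 0.45, adjusted p = 0.00779), and Ltbp3, which stores latent TGF-beta in these fibres, rose (1.14 ± 0.31). Of 34 matrix proteases and inhibitors 3 rose (8.82%, near the 8.64% of all genes) and 5 fell (14.7%, against 8.53%). Their median was 0.16 (0.51 in the earlier set, -0.01 in the later). The falling count was 2 without 8w replicates 1 or 2 or aged replicates 1, 2 or 4 and 3 without 8w replicate 7 or aged replicate 7. The rising count was 1 without 8w replicates 1, 2 or 3 or aged replicates 1 or 2 and 6 without aged replicate 5. Adam12, a membrane protease, changed by -1.83 ± 0.34 and the inhibitor Timp1 by -1.51 ± 0.32. Htra3, a secreted serine protease known from the uterine stroma, ran from 52.3 to 98.8 CPM at 8 weeks and 121 to 334 CPM in aged uteri, without overlap (1.35 ± 0.29, adjusted p = 0.00441).

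**Figure D4:**
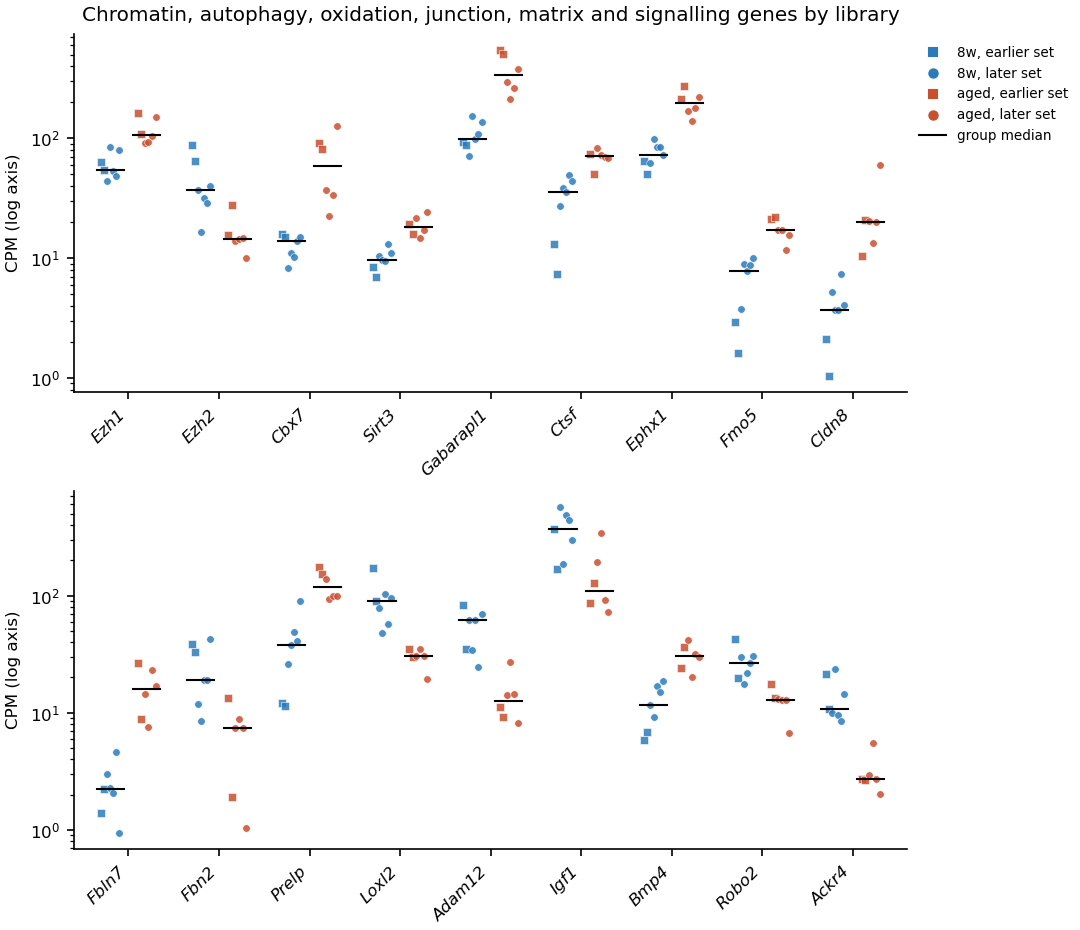
CPM in each library (log axis) of 18 genes, with squares for the earlier and circles for the later set and black lines for group medians. Aged points lie above all 8-week points for Ezh1, Cbx7, Sirt3, Gabarapl1, Ctsf, Ephx1, Fmo5, Cldn8, Fbln7, Prelp and Bmp4 and below them for Loxl2, Robo2 and Ackr4, and the groups overlap for Ezh2, Fbn2, Adam12 and Igf1.

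Single growth factor genes changed on both sides. Igf1, which carries the growth effect of estrogen from stroma to epithelium (chromosome 10, 87858265 to 87937042, plus strand), ran from 169 to 564 CPM (median 367) at 8 weeks and 72.8 to 339 CPM (median 109) in aged uteri. Of its aged values 4 of 6 lay below every 8-week one. It changed by -1.32 ± 0.34, adjusted p = 0.0129, and by -1.24 in the earlier set and -1.34 in the later. Grb10, an adaptor that dampens the receptor of that factor, changed by -0.95 ± 0.21, adjusted p = 0.00491. Of 21 genes of the growth hormone and IGF axis 3 rose and 2 fell (14.3% and 9.52%, against 8.64% and 8.53% of all genes). Their median was 0.31 (1.24 in the earlier set, 0.11 in the later), and the rising count was 1 without 8w replicates 1, 2, 3, 4 or 5 or aged replicates 1, 2 or 4.

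Among 43 genes of TGF-beta and BMP signalling, 5 were higher (11.6%, near the 8.64% of all genes) and 0 lower. Their median was 0.14 (0.36 in the earlier set, 0.05 in the later), and 8 rose without aged replicate 5. The ligand Bmp4 (chromosome 14, 46383520 to 46390669, minus strand) ran from 5.82 to 18.8 CPM (median 11.7) at 8 weeks and 20.2 to 42.04 CPM (median 30.7) in aged uteri, without overlap (1.36 ± 0.30, adjusted p = 0.00429). Bmp6, another ligand, changed by 1.32 ± 0.32, and the receptor Bmpr1b ran from 1.54 to 5.58 CPM at 8 weeks and 3.69 to 27.4 CPM in aged uteri (1.61 ± 0.37, adjusted p = 0.00661). Of 46 Wnt genes 5 rose (10.9%, near the 8.64% of all genes) and 2 fell (4.35%, against 8.53%). Their median was 0.45 (0.63 in the earlier set, 0.35 in the later), and 12 rose without aged replicate 5. The falling count was 1 without 8w replicates 1, 2, 3, 5 or 7 or aged replicates 1, 2, 4 or 6. Rspo1, which strengthens Wnt signals, ran from 17.1 to 50.96 CPM (median 24.1) at 8 weeks and 39.5 to 204 CPM (median 75.7) in aged uteri (1.38 ± 0.32, adjusted p = 0.00617). Dkk3, of a family of Wnt antagonists, rose (3.08 in the earlier set and 0.96 in the later; 1.63 ± 0.34, adjusted p = 0.00328). The receptor Fzd6 changed by 1.11 ± 0.29, and the ligand Wnt16 fell, by -0.66 in the earlier set and -2.06 in the later (-1.61 ± 0.34, adjusted p = 0.00372).

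Guidance molecules, which steer vessels and nerves, showed 5 of 53 higher and 1 lower (9.43%, near the 8.64% of all genes, and 1.89%; median 0.34 (0.67 in the earlier set, 0.25 in the later)), with 12 higher without aged replicate 5 and 8 without aged replicate 6. Robo2, a receptor for Slit proteins (chromosome 16, 73891839 to 74411825, minus strand), was the one that fell, from 17.6 to 42.9 CPM at 8 weeks and 6.75 to 17.4 CPM in aged uteri without overlap (-1.03 ± 0.23, adjusted p = 0.00443). Sema3e, which repels vessel growth, rose (1.76 ± 0.47, adjusted p = 0.0143), as did Ntn4, a netrin of basement membranes (1.72 ± 0.41, adjusted p = 0.00752). Vegfb, of the vascular growth factor family, changed by 1.12 ± 0.30, adjusted p = 0.0159.

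Of the circadian clock genes, several output factors and repressors rose. The clock is a loop in which Arntl and Clock switch on their own repressors and a set of output factors over the day. Of 24 genes tested 10 rose and 0 fell (41.7%, median 0.57), with 1.28 in the earlier set and 0.42 in the later, and 6 rose without aged replicate 1 or aged replicate 2. The repressor Nr1d1 (chromosome 11, 98767932 to 98775333, minus strand) ran from 5.57 to 23.98 CPM (median 7.98) at 8 weeks and 17.7 to 176 CPM (median 54.5) in aged uteri, and in the later set every aged library lay above every 8-week one (2.29 ± 0.44, adjusted p = 0.00197). The output factor Dbp, singled out after its values were seen, changed by 1.83 ± 0.49, and Bhlhe41, a repressor, by 1.69 ± 0.28. In these 2 genes 18.01% and 19.1% of the exon length lies opposite another gene. Of the activators, Arntl had a difference of -0.46 ± 0.27, adjusted p = 0.244, and Clock one of -0.17 (adjusted p = 0.558). The labels give no hour of dissection and its part was not tested.

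Of 19 clock genes with a promoter window 4 held the E-box CACGTG (21.1%, against 8.09% of all genes with a window) and 1 held the D-box TTATGTAA (5.26%, against 1.11%). Of the 4 with an E-box, 2 rose, as did the 1 with a D-box. Of all 1179 tested genes with the E-box 104 rose and 102 fell (8.82% and 8.65%), and of 65 with the D-box 6 rose and 8 fell (9.23% and 12.3%), shares near those of all genes.

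Several retinoid and prostaglandin genes rose. Of 17 retinoid genes 5 rose and 1 fell (29.4% and 5.88%, median 0.40 (0.36 in the earlier set, 0.30 in the later)), and 3 rose without 8w replicate 2 or aged replicate 1. Rdh10, which makes retinal from retinol (chromosome 1, 16105774 to 16133734, plus strand), ran from 48.97 to 157 CPM (median 61.1) at 8 weeks and 78.7 to 427 CPM (median 187) in aged uteri. Dhrs3, which reverses that step, ran from 10.3 to 128 CPM (median 51.1) at 8 weeks and 92.04 to 313 CPM (median 121) in aged uteri. Both rose (1.32 ± 0.21, adjusted p = 0.00042 and 1.79 ± 0.34, adjusted p = 0.00161), with 4 and 3 of 6 aged libraries above every 8-week one. Aldh1a2, which makes retinoic acid from retinal, fell, from 96.1 to 615 CPM at 8 weeks and 37.2 to 126 CPM in aged uteri (-1.63 ± 0.38, adjusted p = 0.00718). Of 27 prostaglandin genes 4 rose and 1 fell (14.8% and 3.7%, against 8.64% and 8.53% of all genes), with a median of 0.32 (0.66 in the earlier set, 0.10 in the later). In the later set 14 of the 27 had a positive and 13 a negative difference, and 0 were called higher in that set alone. Ptgis, which makes prostacyclin, changed by 1.01 ± 0.27 and Cbr1, which reduces prostaglandin E2 among other ketones, by 0.68 ± 0.11. Star, which brings cholesterol to the start of steroid synthesis, ran from 2.83 to 10.2 CPM at 8 weeks and 8.28 to 51.4 CPM in aged uteri (1.43 ± 0.36, adjusted p = 0.0111).

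Epithelial genes did not move as a block. Of 17 markers of luminal and general epithelium 2 rose (11.8%, near the 8.64% of all genes) and 0 fell, and their median was -0.17 (-0.49 in the earlier set, 0.16 in the later), with 1 without 8w replicate 2 or aged replicates 6 or 7 rising. Scnn1a, a subunit of the sodium channel that dries the lumen (chromosome 6, 125320659 to 125344943, plus strand), ran from 1.88 to 7.51 CPM (median 3.62) at 8 weeks and 4.83 to 57.9 CPM (median 23.3) in aged uteri. Among aged uteri 5 of 6 libraries lay above every 8-week one (2.17 ± 0.41, adjusted p = 0.00157). Cldn8, a claudin that seals tight junctions to ions (chromosome 16, 88560828 to 88563183, minus strand), ran from 1.05 to 7.43 CPM (median 3.69) at 8 weeks and 10.5 to 59.4 CPM (median 20.1) in aged uteri, without overlap in either set (2.29 ± 0.38, adjusted p = 0.000596). Of 24 claudin and tight junction genes 4 rose and 0 fell (16.7%, median 0.32 (0.33 in the earlier set, 0.32 in the later)), and the count was 2 without 8w replicate 2. Foxa2, the forkhead factor of uterine glands, ran from 1.24 to 4.59 CPM (median 2.25) at 8 weeks and 1.96 to 33.3 CPM (median 8.23) in aged uteri. It changed by 0.09 in the earlier set and 2.20 in the later (1.54 ± 0.40, adjusted p = 0.0122), a difference between sets that was not called (adjusted p = 0.21), and of the aged libraries only aged replicate 1 lay below the highest 8-week value. Prom1, a protein of luminal membrane folds, changed by 1.81 ± 0.41, adjusted p = 0.00525. Of 24 genes of estrogen-induced secretion 1 rose and 5 fell (4.17% and 20.8%), 4 of these from the Sprr2 family, with a median of -0.34 (-0.01 in the earlier set, -0.54 in the later) and 0 without 8w replicate 1 or aged replicates 1 or 6 and 3 without 8w replicate 6 rising. Their summed level was 7571 to 29859 CPM (median 9878) at 8 weeks and 7253 to 41839 CPM (median 16080) in aged uteri, so the sum was not lower. By member, 15 of the 24 had a negative and 9 a positive difference.

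Of 48 enzymes and readers of DNA and histone methylation and acetylation 5 rose and 5 fell, near the share of all genes, with a median of 0.12 (0.26 in the earlier set, 0.02 in the later), and the falling count was 3 without 8w replicates 1, 2, 3 or 5 or aged replicate 1. This list shares Ezh2, Dnmt1, Uhrf1, Suv39h1 and Suv39h2 with the cell division list given below, so its falls are not separate from that list. Ezh2, the histone methyltransferase of dividing cells, ran from 16.5 to 88.00 CPM (median 36.9) at 8 weeks and 9.96 to 27.7 CPM (median 14.5) in aged uteri and fell (-1.32 ± 0.23, adjusted p = 0.00104). Ezh1, its counterpart in resting cells, singled out after its values were seen, ran from 43.8 to 84.6 CPM (median 54.2) at 8 weeks and 92.3 to 163 CPM (median 106) in aged uteri, without overlap, and rose (0.94 ± 0.18, adjusted p = 0.00172). Cbx7, a reader of the mark both enzymes set (chromosome 15, 79915807 to 79971119, minus strand), ran from 8.35 to 15.8 CPM (median 13.9) at 8 weeks and 22.3 to 126 CPM (median 58.8) in aged uteri, and every aged library lay above every 8-week one (2.02 ± 0.31, adjusted p = 0.000321). Sirt3, the mitochondrial deacetylase, was also apart, with 7.002 to 13.03 CPM at 8 weeks and 14.6 to 24.2 CPM in aged uteri (0.89 ± 0.15, adjusted p = 0.000579; 12.7% of exon length opposite another gene). Of 260 cell division genes 219 fell and 0 rose (84.2%, median -1.57 (-2.13 in the earlier set, -1.29 in the later)), 190 to 234 with 1 library left out. Outside that list are 872 of the 1091 lower genes. The list is not complete, so some of these may act in cell division too, as Ercc6l does.

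Immune genes rose in antigen presentation and complement. Of 31 antigen presentation genes 11 rose and 0 fell (35.5%, median 0.49), with 1.23 in the earlier set and 0.15 in the later. That count was 5 without aged replicate 1, 6 without 8w replicate 2 and 7 without aged replicates 2 or 4. Ciita, the switch of MHC class II genes, ran from 1.83 to 6.16 CPM (median 4.01) at 8 weeks and 4.84 to 22.8 CPM (median 7.51) in aged uteri. In the aged group 5 of 6 libraries lay above every 8-week one (1.06 ± 0.27, adjusted p = 0.0113). Its targets Cd74 and H2-Ab1 changed by 1.66 ± 0.37 and 1.41 ± 0.36, and reads of related MHC genes may be shared. Of 22 complement genes 6 rose (27.3%, against 8.64% of all genes) and 0 fell. The median change was 0.52 (1.06 in the earlier set, 0.23 in the later), and the count 1 without 8w replicate 2 or aged replicates 1 or 2, 2 without 8w replicate 1 and 3 without 8w replicate 3 or aged replicate 4. Beside these, the summed level of 15 macrophage and dendritic markers lay between 364 and 3163 CPM at 8 weeks and between 877 and 2794 CPM in aged uteri, with 1 of 15 called higher (6.67%, near the 8.64% of all genes). That count was 0 without 8w replicates 1, 2, 3, 4 or 7 or aged replicates 1, 2, 4, 5 or 6 and 3 without 8w replicate 6 or aged replicate 7, and its part in these rises was not tested.

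Of 20 chemokine genes and receptors 5 rose and 2 fell (25% and 10%, against 8.64% and 8.53% of all genes), with a median of 0.36 (0.54 in the earlier set, 0.27 in the later). The rising count was 3 without 8w replicates 2, 3, 4, 5 or 7 or aged replicates 2, 4, 6 or 7, the falling count 1 without aged replicates 1, 2 or 7. Cxcl12, which holds leukocytes and guides vessels, ran from 37.7 to 214 CPM (median 102) at 8 weeks and 199 to 328 CPM (median 226) in aged uteri (1.46 ± 0.34, adjusted p = 0.00729). Ackr4, a receptor that removes lymphoid chemokines, fell without overlap, from 8.54 to 23.7 CPM at 8 weeks and 2.04 to 5.51 CPM in aged uteri (-1.81 ± 0.32, adjusted p = 0.00111). Of 46 interferon genes 1 rose and 2 fell (2.17% and 4.35%, below the 8.64% and 8.53% of all genes). The falling count was 0 without 8w replicates 2, 3, 5 or 7 or aged replicates 2, 6 or 7 and 1 without 8w replicates 1 or 4 or aged replicate 1. Of the 46, 42 had a negative difference in the later set, with medians of 0.29 in the earlier set and -0.41 in the later. Ifi27 was the one that rose, with 70.3 to 151 CPM at 8 weeks and 150.4 to 268 CPM in aged uteri (0.97 ± 0.15, adjusted p = 0.000318). Of 12 antibody and plasma cell genes 5 rose and 1 fell (41.7% and 8.33%, against 8.64% and 8.53% of all genes). The falling count was 0 without 8w replicates 2, 3 or 7 or aged replicates 2, 4 or 7. The largest rise of this list was that of Igkc, a light chain constant region (4.67 ± 0.58).

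Markers of other cell types moved beside these results. Of 9 lymphatic markers 5 were higher (55.6%, against 8.64% of all genes) and 0 lower. Their median was 1.19 (2.52 in the earlier set, 0.76 in the later), and the count 3 without 8w replicate 2 or aged replicates 1, 2 or 7. Reln, a guidance protein, ran from 3.14 to 8.44 CPM at 8 weeks and 9.61 to 69.5 CPM in aged uteri, without overlap (1.91 ± 0.37, adjusted p = 0.00207), and Pdpn, a membrane glycoprotein, changed by 1.16 ± 0.23. All 4 globin genes tested rose, the only members called of 5 red blood cell markers (80%, against 8.64% of all genes). The summed level of the 5 markers was 33.2 to 87.3 CPM at 8 weeks and 71.2 to 296 CPM in aged uteri. Hbb-bs ran from 10.6 to 30.9 CPM (median 19.8) at 8 weeks and 27.8 to 192 CPM (median 83.4) in aged uteri (1.90 ± 0.43, adjusted p = 0.00525), and globin reads can be split between copies. The share of blood in the samples was not measured otherwise.

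Of 13 adipocyte markers 4 were tested, and 3 of them rose (75%, against 8.64% of all genes). The count was 1 without 8w replicate 1 or aged replicates 1 or 4. Lipe, hormone-sensitive lipase, ran from 15.7 to 33.01 CPM at 8 weeks and 33.6 to 99.4 CPM in aged uteri, without overlap (1.18 ± 0.30, adjusted p = 0.0118; 15.6% of exon length opposite another gene). The defining adipocyte genes Adipoq and Plin1, the T cell gene Cd3e and the ciliated cell gene Foxj1 were not among the genes analysed here. Of 9 T and NK cell markers tested 0 were called by limma and 0 with voom weights, 1, with a positive difference, had an unadjusted p below 0.05, the other 8 had a negative difference and the median was -0.68 (-0.46 in the earlier set, -0.73 in the later). Kit, the receptor of mast cells and interstitial cells, ran from 4.96 to 18.3 CPM (median 7.06) at 8 weeks and 13.1 to 47.7 CPM (median 23.7) in aged uteri (1.48 ± 0.35, adjusted p = 0.00779). The part of these cells in the gene lists above was not tested.

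**Figure D5:**
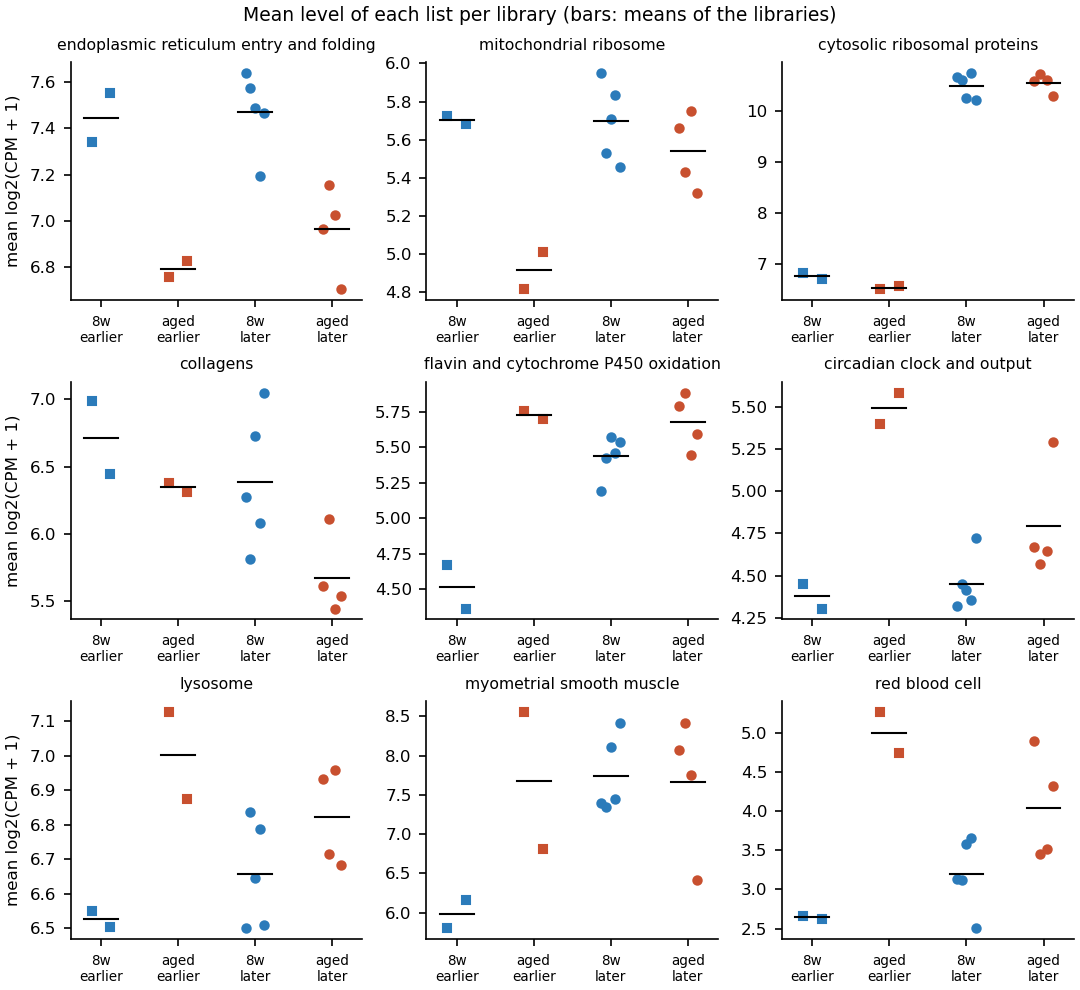
Mean log2(CPM + 1) of 9 lists in each of 13 libraries, by age group and set, with bars at the mean of the libraries. Endoplasmic reticulum genes are lower in aged libraries of both sets, cytosolic ribosomal proteins part the sets (6.51 to 6.82 against 10.2 to 10.7) and not the age groups, and smooth muscle genes are lowest in the 8-week libraries of the earlier set.

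The difference between aged and 8-week uteri itself differed between the sets for 3 genes by the interaction term of the limma fit (0.0235% of those tested). Chrdl1, which binds BMP ligands, ran from 1.53 to 2.13 CPM in the earlier and from 21.5 to 37.6 CPM in the later 8-week libraries, against 24.02 to 28.3 CPM and 6.27 to 26.4 CPM in the aged ones, a difference of 3.27 in the earlier set and -0.98 in the later. Cavin2, a coat protein of caveolae in vessels and fat, ran from 12.2 to 164 CPM (median 92.2) at 8 weeks and 73.1 to 177 CPM (median 141) in aged uteri, with a difference of 3.35 in the earlier set and 0.05 in the later, and its 2 lowest values were those of 8w replicates 1 and 2. Crebrf, which restrains an endoplasmic reticulum stress factor, changed by 2.99 in the earlier set and 0.70 in the later and rose in the pooled fit, without overlap (1.42 ± 0.30, adjusted p = 0.00348). By limma the count was 0 in the 13 libraries alone, where 1861 genes had an unadjusted p below 0.05, and 0 without 8w replicate 2, aged replicate 1 or aged replicate 2. It was 17 without 8w replicate 3, 7 without aged replicate 7 and 49 without aged replicate 5.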

How the data were processed

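RNA from whole uteri was sequenced, and the authors deposited 1 table of CPM values per library. Per the submitters' processing notes, fastp, STAR, featureCounts and edgeR were used with GRCm38, while roles and settings are not given in the sources used here. The NEBNext Ultra kit named in the labels' protocols does not mark strand, so genes that overlap on opposite strands share reads. Each column was assigned by its header. The read totals were recomputed from the CPM steps, within 1e-06 reads of whole numbers. Aged replicate 3 is not analysed here.

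limma 3.58.1 (R 4.3.3) was fitted to log2(CPM + 1) over 20 libraries with age and set as terms, and the tests were checked on simulated data. Named were the 12 largest rises and falls by the rule given in the results, with a mean of at least 5 CPM. To these were added the 4 smallest p-values and 2 first-listed genes of each list, and up to 6 set differences in each direction, less those trimmed for length. Of 145 genes kept and checked, 139 were called, so the named genes are mostly called ones and do not stand for their lists. The members and lists were chosen with earlier results of these data known. Alternatives covered pseudocounts, filter, scaling, set, left-out libraries and file names. Promoter windows and gene positions are from RefSeq GRCm38.p6 and GENCODE M21.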

Additional observations from a re-analysis of the deposited data

Results flagged for a closer look

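Values far from the rest of their group were found in 14 of 290 groups checked (4.83%). All but that of Nop58 in 8w replicate 4 were in aged groups, and those of aged replicate 1 were all low. The genes were chosen largely by size and p-value of their change, and the share was not compared with chance. Aged replicate 1 was the lowest aged library for Mfsd2a (1.64 CPM, others 3.71 to 5.22), Alg8 (7.74 CPM, others 17.4 to 24.4), Eef1e1 (12.7 CPM, others 18.2 to 22.3), Nop58 (48.0 CPM, others 88.5 to 126) and Hnrnpa2b1 (431 CPM, others 725 to 817). Aged replicate 2 was highest for Ssr1 (288 CPM, others 146 to 186) and Me2 (78.9 CPM, others 36.0 to 44.0) and lowest for Ctsf (50.4 CPM, others 69.1 to 82.4). Aged replicate 7 was highest for Pik3c3 (152 CPM, others 51.3 to 65.9) and lowest for Loxl2 (19.5 CPM, others 29.7 to 35.3) and Robo2 (6.75 CPM, others 12.7 to 17.4). Aged replicate 4 was highest for Gsta3 (83.8 CPM, others 12.6 to 24.7), aged replicate 5 for Ackr4 (5.51 CPM, others 2.04 to 2.97), and 8w replicate 4 was lowest for Nop58 (79.7 CPM, others 161 to 266).

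The aged against 8-week difference of 3 genes differed between the sets, by the interaction term of limma. Later minus earlier, it was -4.24 for Chrdl1, -3.30 for Cavin2 and -2.29 for Crebrf on the log2 scale.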

How the results depend on the processing

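The 2196 genes called (1105 higher, 1091 lower) became 969 (500 and 469) with no set term, 183 (51 and 132) in the later set alone, 3613 (1922 and 1691) in the earlier set alone and 565 (309 and 256) with columns attached by file. With 1 library left out, the total ran from 1309 to 2617, the higher count from 629 to 1495 and the lower count from 647 to 1382. With the replicate block there were 457 genes (209 higher, 248 lower), and since same-numbered samples did not all deviate together (correlations from -0.15 to 0.28 within group and set) the numbers are not read as a pairing. Of 3 genes whose difference differed between sets there were 16 with a pseudocount of 5 CPM, 47 with TMM scaling, 64 with quantile normalization and 0 in the 13 libraries alone, where 1861 had an unadjusted p below 0.05 by limma, and 0 to 49 with 1 library left out. The difference of Chrdl1 turned to -0.98 in the later set alone, to -0.0072 without aged replicate 2 (at most 0.72, without aged replicate 6) and to -0.11 with voom weights, an alternative chosen after seeing the data. Of 139 genes named and called, 138 were called in every fit that left out 1 library, 29 in the later set alone, 68 with the replicate block, 75 with columns attached by file and 139 with either scaling. These genes were chosen largely by size and p-value. Of all 2196 genes called, 1173 were called in every fit that left out 1 library. The causes were not tested. The planned edgeR alternative on recovered reads was not run, and voom stands in its place. With 2 libraries a group, values of the earlier set rest on few samples. In the later set alone, 0 proteasome, mitochondrial ribosome, ribosome assembly or splicing genes were called lower, against 101 of 260 cell division genes. Every gene listed had at least 10 reads in each library, so lower genes are not analysed here.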

Other observations

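Further genes, chosen after their values were seen, changed in each of 13 fits that left out a library. Cp, the copper carrier ceruloplasmin, ran from 47.5 to 107 CPM (median 72.9) at 8 weeks and 241 to 498 CPM (median 356) in aged uteri, and Tfrc, which imports iron, from 25.9 to 427 CPM (median 108) at 8 weeks and 18.98 to 64.5 CPM (median 30.6) in aged uteri. The first rose without overlap (2.27 ± 0.41, adjusted p = 0.00111 by limma) and the second fell (-1.998 ± 0.36, adjusted p = 0.00127). Txnip, which restrains glucose uptake, ran from 209.9 to 754 CPM (median 374) at 8 weeks and 924 to 1640.2 CPM (median 1022) in aged uteri, without overlap (1.59 ± 0.26, adjusted p = 0.000507), and Pik3ip1, an inhibitor of PI3 kinase, and Fbxo32, a ubiquitin ligase of wasting muscle, changed by 1.96 ± 0.37 and 1.63 ± 0.37. Il33, an alarm cytokine, ran from 2.400 to 22.6 CPM (median 6.599) at 8 weeks and 10.1 to 69.3 CPM (median 43.6) in aged uteri (2.13 ± 0.43, adjusted p = 0.00257).

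The angiotensin receptors moved apart. Agtr1a rose (1.75 ± 0.32, adjusted p = 0.00139) and Agtr2 fell (-1.56 ± 0.43, adjusted p = 0.0175), the latter by -0.05 in the earlier set and -2.25 in the later. Npr1, the natriuretic peptide receptor, changed by 1.65 ± 0.34, Nt5e, which makes adenosine, by 1.88 ± 0.44, Arg2, mitochondrial arginase, by 1.89 ± 0.32, the epithelial protein gene Sfn by -1.82 ± 0.39 and the imprinted RNA Rian by -1.84 ± 0.40.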
